A study of Mus musculus with 12 samples.

Results

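FK506 (tacrolimus) added to metformin was compared with metformin alone in activated mouse CD4+ T cells, over all genes that reached an FPKM of at least 0.5 in at least 3 of the 6 samples of these groups. FPKM is the fragment count of a gene per kilobase of its transcript and relative to all fragments counted, so that levels of different genes can be set side by side. The rule kept 14456 of the 45777 genes listed. The Metformin and Metformin+FK506 groups held 3 samples each, out of 12 in the series. All were bulk RNA from CD4+ T cells of the spleen of wild-type C57BL/6 mice, cultured for 3 days with anti-CD3 at 0.5 µg/ml, which both groups therefore share. The methods also name anti-CD28 among the activation conditions. The mice were 7 weeks old by the labels and 8 to 10 weeks old by the methods, and the concentrations of the drugs in these cultures are not given in the sources used here. The other groups, Control (anti-CD3 and no drug) and FK506 (anti-CD3 and FK506), were used to set the effect of FK506 without metformin beside its effect with metformin, and they entered the fit, in which all groups share an estimate of the spread. Nothing says whether the samples of a group came from separate mice or cultures, so the p-values measure the spread between these samples only.

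FK506 binds the immunophilin FKBP12 and the complex blocks calcineurin, the phosphatase that sends NFAT factors to the nucleus when the T cell receptor is engaged. NFAT, with AP-1, drives the genes of IL-2 and other cytokines, and without AP-1 it drives genes of unresponsive T cells. Metformin slows respiratory complex I, which activates the energy sensor AMPK and restrains mTORC1, the kinase that couples growth to nutrients. An activated CD4+ T cell normally enters the cell cycle, makes ribosomes, takes up glucose and amino acids and leaves the resting state kept by KLF2 and TCF-1.

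The 6 libraries held between 43402632 and 64290105 counted reads. The 10 highest genes took 7.37% to 7.58% of the reads in the Metformin samples and 4.54% to 4.79% in the Metformin+FK506 samples, and the number of genes with an FPKM of at least 0.5 was 13139 to 13230 against 14258 to 14286. For such single values, 3 samples against 3 cannot reach p < 0.05 in the two-sided exact permutation test, whose smallest p is 0.1. The T cell markers Cd3e and Cd4 were expressed in every sample, Cd3e at 195 to 207 FPKM with metformin and 238 to 248 with the combination and Cd4 at 188 to 192 and 227 to 254. Several marker lists of other spleen cells were higher with the combination. The summed FPKM of 12 macrophage and monocyte markers went from 9.15 to 10.2 across the Metformin samples to 837 to 968 across the Metformin+FK506 samples, that of 8 genes of red pulp macrophages from 34.9 to 35.7 up to 750 to 783, and that of 12 B cell markers from 88.7 to 105 up to 458 to 492. Most of the red pulp sum with the combination came from Hmox1, at 12.2 to 13.9 against 493 to 519 FPKM. Of the 7 tested red pulp genes, 6 rose and 1 fell, and 4 were under 0.5 FPKM in every Metformin sample. That of 8 CD8 T and NK cell markers was 22.3 to 24.9 against 24.7 to 26.1, and of the 5 tested 1 rose and 2 fell (median −0.40, positive on the TPM scale). The sum of 14 T cell identity genes was 2540 to 2665 against 2396 to 2500 FPKM, but 5168 to 5307 against 6042 to 6176 TPM, so its direction turned with the scale, and 4 of its genes rose and 7 fell (median −0.13, positive on the TPM scale). The sum of 8 basophil and mast cell markers was 0.784 to 0.916 against 1.67 to 2.37 FPKM. Of these, Mcpt8, Cpa3, Fcer1a and Prss34 were at 0 in all 6 samples, Gata2, also a factor of other blood cells, rose (4.70 ± 0.37) and Hdc changed by −0.53 ± 0.21 (edgeR adjusted p = 0.0268). Hdc lost its call without Metformin replicate 3 (edgeR adjusted p = 0.0703) and without Metformin+FK506 replicate 2 or 3 (edgeR adjusted p = 0.114 and 0.0746). In bulk RNA, fewer cells of a type and less RNA per cell cannot be told apart. By the methods, CD4+ T cells were taken from splenocytes with CD4-coated magnetic beads, a step that keeps cells with CD4 on their surface. The part of other cells in the results was not tested.

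**Figure D1:**
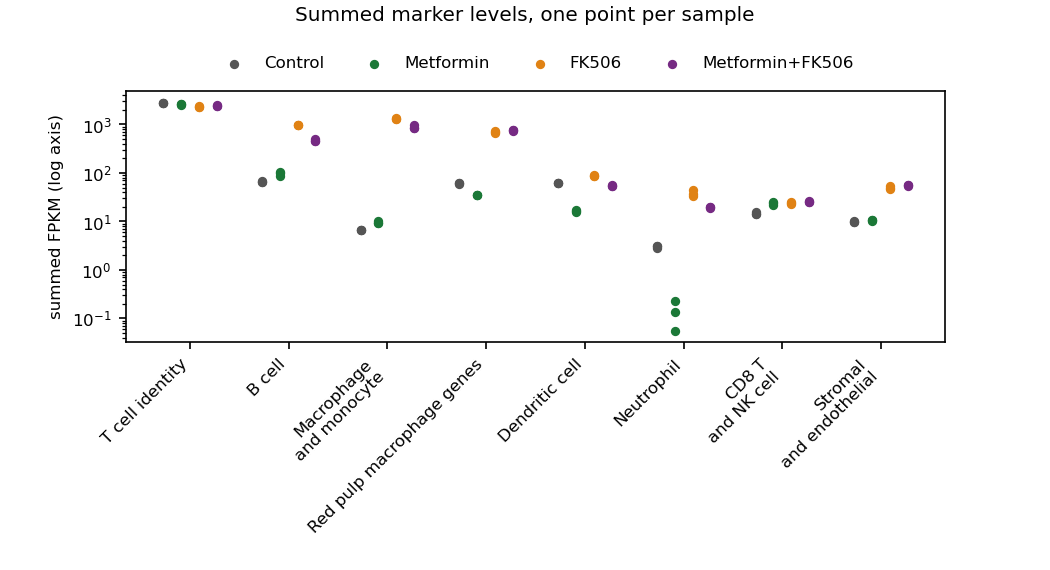
Summed FPKM (log axis) of the marker lists of each cell type, 1 point per sample, in Control, Metformin, FK506 and Metformin+FK506. The T cell sums lie close together in all groups, while macrophage sums are near 10 in Metformin and 837 to 968 in Metformin+FK506.

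Differences were tested with edgeR's quasi-likelihood test on the counts, and a gene was called where its p-value, after Benjamini-Hochberg adjustment over the 14456 genes, fell under 0.05. All fold changes below are fitted log2 values, Metformin+FK506 minus Metformin, with their standard error (SE). FK506 changed 11511 genes (79.6%), of which 5951 were higher (41.2%) and 5560 lower (38.5%). A log2 change of 1 or more in size was met by 2451 higher genes (17.0%) and 2072 lower genes (14.3%). The FPKM of the groups did not overlap for 11485 genes (79.4%). Most genes passed, so the share of a list that passed says little, and lists are described below by their direction and size. The median over all genes was 0.027. It moved to 0.20 when counts were scaled by library total only, to 0.27 when scaled to the T cell identity genes and to 0.45 on log2(TPM + 1), so that changes smaller than this turn on the scaling. With these scalings 62.0%, 66.1% and 75.5% of the called genes were higher, against 51.7%. Of the tested genes, 1218 were under 0.5 FPKM in every Metformin sample and 341 in every Metformin+FK506 sample, so they passed the filter through 1 group and had to differ. Such genes made up 4 of the tested chemokine ligand genes and 3 each of the immunoglobulin and the stromal and endothelial genes. They made up 2 each of the Treg, Th2, follicular helper, homing receptor, cell cycle inhibitor, ATF4 and NR4A, EGR and TOX lists. The Th1, cytotoxic granule, basophil and mast cell, AP-1 and IRF, interferon and lysosome lists held 1 each. For the macrophage, red pulp, B cell, cytokine and Th17 lists they are given with the list.

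**Figure D2:**
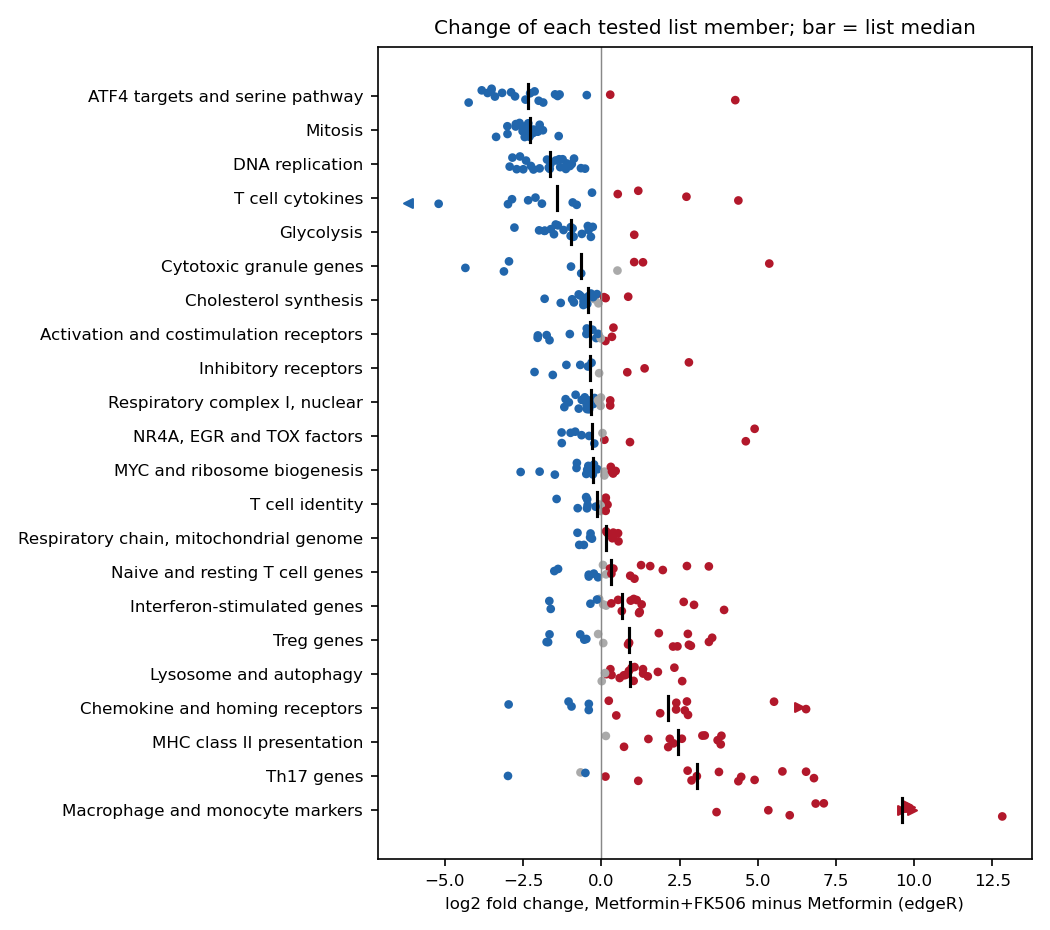
Fitted log2 fold change, Metformin+FK506 minus Metformin, of the tested members of 22 gene lists, 1 point per gene (red higher, blue lower, grey not past the threshold; triangles, bounds for genes at the floor in 1 group), with the list median as a bar. The medians of the ATF4, mitosis and replication lists lie to the left of 0 and those of the Th17, MHC class II and macrophage lists to the right.

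The genes of amino acid supply had the lowest median change of the 41 gene lists described here. ATF4 is the transcription factor of the integrated stress response, and it drives the genes that make and import amino acids. Of 20 genes of the ATF4 and serine pathway list, 18 fell and 2 rose, with a median of −2.35 against 0.027 over all genes. Asns, which encodes asparagine synthetase, was at 120, 127 and 124 FPKM in the Metformin samples and at 7.02, 6.91 and 7.88 in the Metformin+FK506 samples. The ranges were far apart, and Asns fell by 4.24 ± 0.067 on the log2 scale (edgeR adjusted p = 2.28e-18). Trib3, a pseudokinase induced by ATF4, went from 87.0, 87.3 and 80.7 to 6.81, 7.78 and 8.12 FPKM, a change of −3.64 ± 0.062. Chac1, which breaks down glutathione, went from 17.6, 17.7 and 17.3 to 1.76, 1.82 and 1.46 FPKM, a change of −3.52 ± 0.16. The enzymes of serine synthesis moved by a like amount. Phgdh, the first of them, was at 225 to 252 FPKM with metformin and at 22.1 to 25.4 with the combination (−3.51 ± 0.054), and Psat1, the next, at 139 to 144 and 14.4 to 15.6 (−3.40 ± 0.045). Slc7a5, the large neutral amino acid transporter, changed by −3.17 ± 0.051, and Atf4 itself by −1.40 ± 0.039, from 312 to 333 down to 130 to 141 FPKM. Slc7a11, the cystine transporter and also an ATF4 target, went the other way. It was at 0.367, 0.441 and 0.448 FPKM with metformin and at 9.26, 9.0 and 9.07 with the combination (4.28 ± 0.073). The other riser was Atf3, at 24.6 to 28.0 and 34.8 to 36.2 FPKM, with a change of 0.28 ± 0.047 that is smaller than the shift between scalings. The largest falls among all genes with a mean of at least 1 FPKM in both groups included further amino acid transporters, Slc6a9 for glycine (−4.31 ± 0.077) and Slc1a4 for neutral amino acids (−3.71 ± 0.13). They also included Stc2, which encodes the secreted protein stanniocalcin 2 (−4.30 ± 0.083).

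The promoters of 3 of these genes are shown because ATF4 binds, with CEBP factors, a composite element whose core reads TGATGNAA. The windows run from 250 bases before to 50 after the annotated start (RefSeq sequence, GRCm38.p6, the mm10 build named in the submitters' processing notes), 5′ to 3′ on the gene's strand, with the match to the element, on either strand, in capitals. They are at chr6:7693160-7693459 (minus strand), chr2:119350992-119351291 (plus strand) and chr2:152344011-152344310 (minus strand).
Asns: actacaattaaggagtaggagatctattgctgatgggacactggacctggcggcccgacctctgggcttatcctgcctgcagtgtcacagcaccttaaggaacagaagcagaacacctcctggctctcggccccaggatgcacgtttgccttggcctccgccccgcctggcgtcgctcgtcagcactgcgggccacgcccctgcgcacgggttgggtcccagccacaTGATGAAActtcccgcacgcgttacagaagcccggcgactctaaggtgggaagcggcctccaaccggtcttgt
Chac1: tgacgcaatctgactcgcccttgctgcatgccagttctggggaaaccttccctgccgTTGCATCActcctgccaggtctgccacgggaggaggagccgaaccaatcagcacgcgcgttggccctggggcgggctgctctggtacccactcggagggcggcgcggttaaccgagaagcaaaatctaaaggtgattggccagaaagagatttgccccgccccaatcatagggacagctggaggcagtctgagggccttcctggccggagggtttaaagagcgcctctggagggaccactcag
Trib3: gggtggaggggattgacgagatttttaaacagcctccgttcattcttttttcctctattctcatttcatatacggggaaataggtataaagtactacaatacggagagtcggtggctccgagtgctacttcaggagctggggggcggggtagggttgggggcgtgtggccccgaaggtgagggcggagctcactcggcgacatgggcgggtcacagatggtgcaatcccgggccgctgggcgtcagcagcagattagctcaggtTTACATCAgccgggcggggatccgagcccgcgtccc
The letters TGATGNAA were found, on either strand, in the windows of 6 of the 19 list genes with a promoter entry (Asns, Atf3, Chac1, Pck2, Slc7a11 and Trib3), or 31.6%, against 4.06% of all 27025 promoters of the same length. Among the 10283 promoters of tested genes it was 2.35%. The list was drawn up from ATF4 targets and serine pathway genes, so a higher share could follow from how it was chosen. The 2 risers, Atf3 and Slc7a11, were among the 6. A match of letters is a description and not a site.

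The largest falls in absolute level were mostly of ribosomal protein genes. The list of these genes was drawn up after the values had been seen. All 79 tested genes for proteins of the cytosolic ribosome fell, with changes from −2.53 to −0.89 and a median of −1.79. Together they took 13.3% to 13.8% of all counted reads in the Metformin samples and 4.15% to 4.60% in the Metformin+FK506 samples. The 10 largest falls in mean FPKM were Eef1a1, Rplp1, Rps18, Rpl12, Rpl13a, Rpl41, Rpl23a, Rpl4, Rps27a and Tpt1. Eef1a1, the elongation factor that brings aminoacyl-tRNA to the ribosome, was at 9554, 9836 and 9709 FPKM with metformin and at 3641, 3655 and 3935 with the combination (−1.52 ± 0.040). Rplp1, a protein of the ribosomal stalk, was at 4427, 4446 and 4176 against 1013, 1105 and 1226 FPKM (−2.12 ± 0.061). Both groups were tight and well apart. Ribosomal protein genes have many processed pseudogenes, and how shared reads were counted is not stated, so single values are uncertain. Of 809 tested pseudogenes, 554 fell and 84 rose. Transcript length, here the length implied by the deposited counts and FPKM of these samples, moved with the change. When the tested genes were split into 5 classes of equal size by transcript length, the median from the shortest to the longest class was −0.29, −0.12, 0.051, 0.13 and 0.20, and 64 of the 79 ribosomal protein genes were in the shortest class. Without the ribosomal protein genes the median of that class was −0.27. The part of length in the fall was not tested.

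Genes that build ribosomes were lower in sum but not evenly. The summed FPKM of the MYC and ribosome biogenesis list went from 1929 to 1960 across the Metformin samples down to 613 to 657 across the Metformin+FK506 samples, with Npm1 the highest of its genes. Of its 19 tested genes, 13 fell and 4 rose (median −0.27, a sign that turned on the TPM scale). Myc, the factor that drives this programme, was at 47.4, 45.7 and 49.3 FPKM with metformin and at 12.5, 13.6 and 14.1 with the combination (−1.97 ± 0.048). Npm1, the nucleolar protein nucleophosmin, was at 1382, 1374 and 1358 against 246, 242 and 175 FPKM (−2.58 ± 0.041), and Ncl, nucleolin, changed by −1.49 ± 0.040. Bop1, a factor of large-subunit assembly, was higher, at 24.9 to 28.5 against 17.1 to 17.2 FPKM (0.46 ± 0.047). Eif4ebp1, the translation repressor that mTORC1 phosphorylates, fell from 121 to 122 down to 17.7 to 21.0 FPKM (−2.75 ± 0.056).

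Genes of DNA replication and mitosis were lower throughout their lists. Of 24 DNA replication genes all fell (median −1.64), and of 24 mitosis genes all fell (median −2.29). Mcm5, a subunit of the replicative helicase, was at 53.1, 52.4 and 49.5 FPKM with metformin and at 16.3, 16.9 and 16.7 with the combination (−1.68 ± 0.036). Top2a, the topoisomerase that separates sister chromatids, was at 81.9, 86.6 and 84.2 against 16.2, 15.6 and 16.9 FPKM (−2.53 ± 0.043). Mki67, the marker Ki-67, changed by −2.24 ± 0.048 and Bub1, a kinase of the spindle checkpoint, by −3.37 ± 0.097. No sample of one group reached the range of the other for these genes. Regulators of entry into the cycle moved in both directions. Ccnd2, the cyclin that lymphocytes use in G1, was at 95.3 to 98.1 FPKM with metformin and 45.6 to 50.6 with the combination (−1.15 ± 0.039). Ccnd1, a cyclin scarce in T cells, was at 0.00, 0.0555 and 0.0338 against 4.68, 5.06 and 4.80 FPKM (7.08 ± 0.30). Of 18 genes of cell cycle inhibition and quiescence, 6 rose and 10 fell (median −0.40, positive on the TPM scale). The CDK inhibitor genes Cdkn2b and Cdkn1b rose, Cdkn2b from 0.187 to 0.370 up to 11.3 to 12.6 FPKM (5.25 ± 0.16) and Cdkn1b from 41.9 to 46.2 up to 65.9 to 80.8 (0.55 ± 0.067), while Cdkn1a changed by −1.12 ± 0.044.

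Of 20 glycolysis genes, 19 fell and 1 rose, with a median of −0.98. Slc2a3, the glucose transporter GLUT3, was at 65.0, 58.8 and 66.4 FPKM with metformin and at 10.3, 9.87 and 11.8 with the combination (−2.78 ± 0.063). Pgk1, which makes ATP in the pathway, was at 541 to 567 against 165 to 187 FPKM (−1.81 ± 0.040). The exception was Pfkfb3, which makes the activator of phosphofructokinase, at 14.6 to 15.6 against 33.7 to 34.9 FPKM (1.05 ± 0.036). Of 20 genes of cholesterol synthesis and its control, 15 fell and 3 rose (median −0.43, positive on the TPM scale). Fdps, which makes farnesyl diphosphate, changed by −1.81 ± 0.057. The 15 largest falls were led by Angptl6, which encodes a secreted angiopoietin-like protein, from 47.0 to 48.8 down to 0.742 to 1.74 FPKM (−5.30 ± 0.16). They held 2 other lipid enzymes, Scd2, a fatty acid desaturase, from 183 to 194 down to 10.6 to 11.9 FPKM (−4.24 ± 0.048), and Soat2, which esterifies cholesterol (−4.48 ± 0.13). Of the 13 genes of the mitochondrial genome 7 rose and 6 fell, between −0.76 and 0.55, and they held 2.76% to 2.84% of reads with metformin and 2.75% to 3.02% with the combination (exact permutation p = 0.7), while their summed TPM was 48246 to 50510 against 58541 to 64107, without overlap. Of 22 nuclear genes of complex I, 16 fell and 2 rose (median −0.34, positive on the TPM scale).

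Genes of nutrient sensing moved in both directions. Of 18 tested AMPK and mTORC1 genes 10 rose and 6 fell (median 0.21), among them Prkaa1, the catalytic subunit of AMPK, at 5.77 to 6.43 against 9.62 to 11.3 FPKM (0.62 ± 0.067), and Rptor, a subunit of mTORC1 (1.13 ± 0.054). Of 14 tested BCL2 family genes 7 fell and 6 rose (median −0.27, positive on the TPM scale), with the survival gene Bcl2 at 34.3 to 34.6 FPKM against 10.4 to 12.1 (−1.75 ± 0.048).

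Cytokine genes were lower in part. Of 18 listed, 14 were tested, of which 10 fell and 4 rose, with a median of −1.41, and 5 of the tested genes had passed the filter through 1 group. Il4, the cytokine of Th2 help, was at 11.9, 10.4 and 10.9 FPKM with metformin and at 0.00, 0.478 and 0.441 with the combination (−5.20 ± 0.35). Il24, of the IL-10 family, was at 3.83, 2.44 and 3.15 FPKM with metformin and at 3 counts or fewer in each Metformin+FK506 sample, which makes it at least 73.5-fold lower, with 3 counts in each of those samples taken as the floor. Lta, lymphotoxin alpha, was the most expressed of those that fell, at 114, 113 and 117 against 25.1, 22.6 and 28.0 FPKM (−2.34 ± 0.054). Il2 and Ifng, known targets of NFAT, were low in both groups. Il2 was at 1.63, 1.64 and 2.01 FPKM with metformin and at 0.639, 0.854 and 1.65 with the combination, so that the groups overlapped, with a change of −0.92 ± 0.27 (edgeR adjusted p = 0.00503) that lost its call on log2(TPM + 1) (−0.38, limma adjusted p = 0.0872). Ifng was at 6.80 to 7.69 against 3.96 to 5.16 FPKM (−0.79 ± 0.13), without overlap. Il10, an anti-inflammatory cytokine, was higher, at 0.687, 0.882 and 0.987 against 6.42, 6.75 and 5.70 FPKM (2.72 ± 0.15). Ltb, lymphotoxin beta, was the most expressed of the listed cytokines in both groups, at 182 to 207 against 312 to 316 FPKM (0.52 ± 0.046). Il17f rose by 4.38 ± 0.49 from levels of 0.0268 to 0.0570 FPKM to 1.02, 1.28 and 2.61.

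Genes of cytotoxic granules moved in both directions. Gzmb, granzyme B, was at 296, 292 and 287 FPKM with metformin and at 11.5, 14.6 and 22 with the combination (−4.35 ± 0.17). Nkg7, a protein of cytotoxic granules, was at 99.6 to 111 against 14.1 to 15.8 FPKM (−2.95 ± 0.088). Gzmk, granzyme K, went the other way, from 0.0811 to 0.206 up to 5.31 to 7.19 FPKM (5.37 ± 0.28). It passed the filter through the Metformin+FK506 samples alone and so had to differ. Of the 12 granule genes listed, 9 were tested, of which 5 fell and 3 rose.

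Receptors of activation mostly fell, with 10 of 14 lower and 3 higher (median −0.38, positive on the TPM scale). Il2ra, the alpha chain of the IL-2 receptor, was at 155, 154 and 158 FPKM with metformin and at 53.6, 50.04 and 50.7 with the combination (−1.75 ± 0.036). The costimulatory receptors of the TNF family moved alike, Tnfrsf4 (OX40) by −2.04 ± 0.040, Tnfrsf9 (4-1BB) by −2.03 ± 0.044 and Tnfrsf18 (GITR) by −1.66 ± 0.053. Of 10 inhibitory receptors, 6 fell and 3 rose (median −0.37, positive on the TPM scale). Lag3, which binds MHC class II, was at 140, 135 and 135 against 32.1, 34.8 and 36.8 FPKM (−2.14 ± 0.047). Pdcd1, the receptor PD-1, was higher, at 22.3, 21.2 and 21.4 against 44.5, 39.5 and 44.3 FPKM (0.83 ± 0.051). Entpd1, the ectoenzyme CD39, rose from 1.05 to 1.17 up to 8.29 to 8.88 FPKM (2.80 ± 0.082). Cish, a feedback inhibitor that IL-2 induces through STAT5, was at 80.8 to 84.6 against 13 to 14.3 FPKM (−2.75 ± 0.041), whereas Socs2, of the same family, rose by 1.56 ± 0.042.

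**Figure D3:**
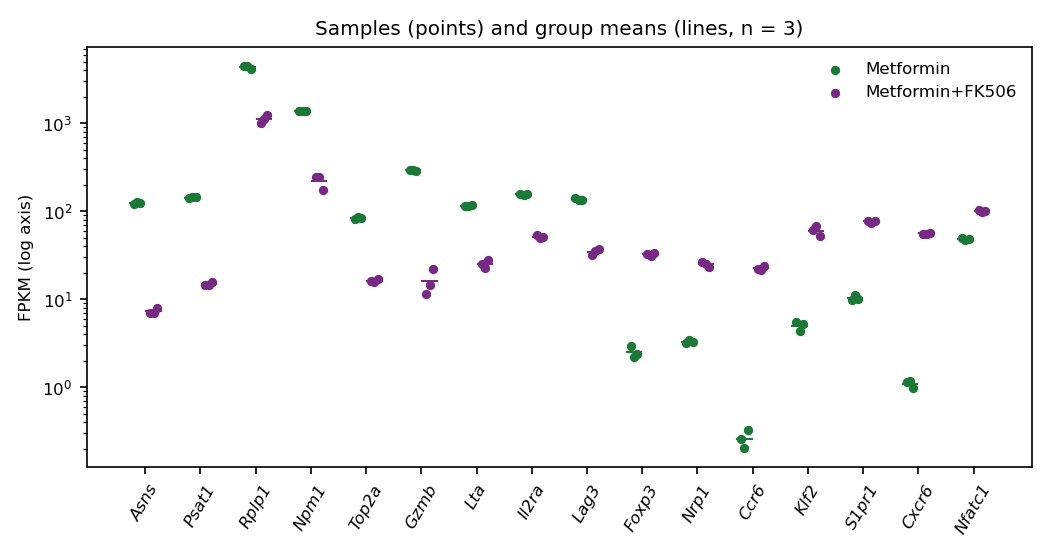
FPKM (log axis) of 16 genes in the 3 Metformin samples and the 3 Metformin+FK506 samples, with group means as lines. From Asns to Lag3 every Metformin+FK506 sample lies below every Metformin sample, and from Foxp3 to Nfatc1 every one lies above.

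The calcineurin pathway's own genes were neither all lower nor all higher. Of 15 tested genes for calcineurin, its binding proteins and NFAT factors, 8 rose and 4 fell (median 0.097). The catalytic subunit genes differed. Ppp3cc was at 43.1, 44.3 and 53.2 FPKM with metformin and at 19.4, 13.7 and 19.2 with the combination (−1.61 ± 0.039). Ppp3ca was at 5.32, 5.68 and 5.49 against 12.5, 13.8 and 10.4 FPKM (1.01 ± 0.080), and Ppp3cb, whose groups overlapped, changed by −0.11 ± 0.060 (edgeR adjusted p = 0.106). Fkbp1a, which encodes FKBP12, the protein that FK506 binds, was at 139 to 150 against 85.5 to 88.7 FPKM (−0.89 ± 0.041). Nfatc1, the NFAT factor that activation induces, was at 49.6, 46.4 and 48.7 against 104, 97.8 and 99.3 FPKM (0.91 ± 0.042). Rcan1, a calcineurin inhibitor whose gene NFAT induces in many cells, was at 4.85 to 5.44 against 4.96 to 5.89 FPKM, with a change of −0.069 ± 0.099 (edgeR adjusted p = 0.549).

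Factors downstream of the receptor moved both ways within families. Among the AP-1 and IRF genes 7 rose and 6 fell of 14 tested. Irf4, which scales with receptor signal, was at 88.7, 90.5 and 97.8 FPKM with metformin and at 43, 40.9 and 42.8 with the combination (−1.28 ± 0.045), and Fosl2 and Junb changed by −2.0 ± 0.036 and −1.09 ± 0.054. Jun and Fosb, of the same AP-1 family, were higher, Jun at 26.2 to 27.4 against 8.75 to 9.11 FPKM (1.43 ± 0.045) and Fosb at 5.47 to 5.87 against 0.378 to 0.465 (3.60 ± 0.12). Of 12 genes of the NR4A, EGR and TOX list, 7 fell and 4 rose (median −0.31, positive on the TPM scale). Nr4a2 and Nr4a3, orphan receptors tied to T cell dysfunction, changed by −1.27 ± 0.059 and −0.98 ± 0.043. Rnf128, Tox2 and Cblb, genes tied to unresponsive T cells, did not move together. The ubiquitin ligase gene Rnf128 (GRAIL) rose from 0.119 to 0.125 up to 2.89 to 3.83 FPKM (4.62 ± 0.17) and Tox2 from 0.168 to 0.243 up to 7.81 to 8.56 (4.90 ± 0.13), and the ubiquitin ligase gene Cblb fell from 86.3 to 89.9 down to 39.5 to 41.1 FPKM (−1.27 ± 0.039). Rnf128 and Tox2 passed the filter through the Metformin+FK506 samples alone and so had to differ.

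Genes of CD4+ T cell subsets differed by subset. Of 16 Th17 genes listed, 15 were tested, of which 12 rose and 2 fell (median 3.05), and 5 of the risers had been under 0.5 FPKM in every Metformin sample. The receptor genes Il23r, Il1r1 and Ccr6 were under 0.5 FPKM in every Metformin sample and at 8.0 to 9.12, 5.88 to 7.13 and 21.6 to 23.9 FPKM with the combination. Il17a, the cytokine that names these cells, was at 0.483, 0.416 and 0.224 against 0.988, 1.29 and 0.517 FPKM (1.18 ± 0.39, edgeR adjusted p = 0.0105). It lost that call without Metformin replicate 3 (edgeR adjusted p = 0.0592) and without Metformin+FK506 replicate 2 (edgeR adjusted p = 0.0701), and with quantile scaling of log2(FPKM + 1) the change was 0.19 (limma adjusted p = 0.246), against 0.47 on that scale without it (limma adjusted p = 0.0128). Il21, which Th17 and follicular cells make, fell from 1.58 to 1.98 down to 0.205 to 0.280 FPKM (−2.99 ± 0.14). It passed the filter through the Metformin samples alone and so had to differ.

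Of 18 Treg genes, 10 rose and 6 fell (median 0.87). Foxp3, which defines Treg cells, was at 2.90, 2.18 and 2.38 FPKM with metformin and at 32.4, 30.7 and 33.6 with the combination (3.54 ± 0.079, edgeR adjusted p = 1.62e-16). Ikzf2 (Helios), Nrp1 and Lrrc32 (GARP, which displays latent TGF-β) rose by 2.86 ± 0.055, 2.77 ± 0.061 and 3.44 ± 0.060. The Treg genes that fell included Il2ra, Tnfrsf18 and Ctla4 (−0.67 ± 0.044), which activated T cells also induce, and Izumo1r, the folate receptor FR4, at 273 to 305 against 87.3 to 100 FPKM (−1.70 ± 0.051). The summed FPKM of the list went down, from 957 to 1018 in the Metformin samples to 621 to 650 in the Metformin+FK506 samples, although its median change was positive.

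Of 14 Th1 genes 7 rose and 6 fell, and 1 of the 14 had been under 0.5 FPKM in every Metformin sample. Tbx21, the Th1 factor T-bet, was at 17.5, 17.4 and 18 FPKM with metformin and at 5.55, 4.79 and 5.0 with the combination (−1.94 ± 0.083). Il12rb2, the chain that makes the IL-12 receptor functional, was at 48.0 to 50.5 against 5.50 to 7.11 FPKM (−3.30 ± 0.043). Cxcr3, a chemokine receptor of Th1 cells, was higher, at 7.18, 7.20 and 7.32 against 53.7, 51.5 and 59.6 FPKM (2.77 ± 0.082). Of 10 tested Th2 genes 7 fell and 3 rose (median −0.65), and of 11 tested genes of follicular helper cells 8 rose and 2 fell (median 0.85), among the risers Bcl6, from 9.82 to 12 up to 23.4 to 24.0 FPKM (0.85 ± 0.050), and Id3 (2.36 ± 0.060).

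Of 18 genes of naive or resting T cells, 10 rose and 6 fell (median 0.30). Klf2, the factor that keeps T cells quiescent and circulating, was at 5.48, 4.37 and 5.15 FPKM with metformin and at 60.8, 67.4 and 52.1 with the combination (3.44 ± 0.10). S1pr1, its target and the receptor for leaving lymph nodes, was at 9.84, 11.1 and 10.0 against 78.0, 73.7 and 77.8 FPKM (2.74 ± 0.048), and Tcf7, which encodes TCF-1, rose by 1.06 ± 0.031. Satb1, a chromatin organiser of T cells, and Tsc22d3 (GILZ) fell by 1.38 ± 0.036 and by 1.5 ± 0.054. Chemokine and homing receptors took part in the rise, with 11 of 16 higher and 5 lower (median 2.14). Cxcr6, a receptor of tissue-resident lymphocytes, was at 1.14, 1.17 and 0.973 FPKM with metformin and at 55.1, 55.4 and 57.1 with the combination (5.52 ± 0.076). Its ligand gene Cxcl16, which macrophages and B cells express, was at 0.557 to 0.984 against 91.9 to 96.7 FPKM (6.85 ± 0.095). Cxcr4 rose by 2.67 ± 0.057, and Ccr8, a receptor of Th2 and activated Treg cells, was at 28.4 to 32.1 against 3.89 to 4.99 FPKM (−2.97 ± 0.11). The T cell chemokine gene Ccl4 changed by −2.60 ± 0.16.

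The 15 largest rises among genes with a mean of at least 1 FPKM in both groups included B cell genes (Fcmr, Ighd and 3 immunoglobulin variable segments), myeloid genes (Tyrobp, Spi1 and Lgmn) and genes of vessels (Eng and Igfbp7), beside Cxcr6 and Hmox1. Of 12 macrophage and monocyte markers 11 were tested and all 11 rose, 9 of them from under 0.5 FPKM in every Metformin sample. C1qb, a chain of complement C1q, was listed at 0 in the 3 Metformin samples and at 52.3, 45.5 and 47.9 FPKM with the combination, which makes it at least 932-fold higher against the floor. Slc40a1, the iron exporter ferroportin, was at 0 against 65.3 to 66.3 FPKM, or at least 3860-fold higher, and Csf1r, the receptor for the macrophage growth factor, at least 982-fold higher. Hmox1, which degrades haem in red pulp macrophages and also in stressed cells, was at 12.2, 13.9 and 13 against 507, 493 and 519 FPKM (5.12 ± 0.052, edgeR adjusted p = 3.88e-20). The ferritin genes that store iron gave the largest rises in FPKM of all genes, Ftl1 from 613 to 637 up to 3603 to 3957 (2.44 ± 0.044) and Fth1 from 216 to 226 up to 2662 to 2871 (3.51 ± 0.045). The endothelial gene Cdh5 was at 0 against 8.80 to 10.6 FPKM, at least 670-fold higher, and Eng and Igfbp7 rose by 5.18 ± 0.075 and 5.21 ± 0.090. Of 18 lysosome and autophagy genes 16 rose and none fell (median 0.93), with Ctsd, cathepsin D, at 98.6 to 103 against 648 to 694 FPKM (2.58 ± 0.041).

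All 12 B cell markers rose (median 2.33), 2 of them from under 0.5 FPKM in every Metformin sample, as did 11 of 12 genes of MHC class II presentation (median 2.44). Cd79a, a signalling chain of the B cell receptor, was at 16.5, 19.1 and 19 FPKM with metformin and at 156, 152 and 160 with the combination (2.95 ± 0.057). Cd74, the invariant chain of MHC class II, was at 132, 137 and 150 against 1515, 1430 and 1605 FPKM (3.31 ± 0.061). Of 11 immunoglobulin genes tested 8 rose and 3 fell. Ighm and Ighd, the classes of resting B cells, rose, Ighm from 147 to 157 up to 1104 to 1193 FPKM (2.76 ± 0.048) and Ighd from 2.1 to 2.25 up to 76.3 to 83.8 (5.06 ± 0.058). Ighg1, a switched class, was at 14.1, 14.3 and 15.5 against 0.290, 0.299 and 0.169 FPKM (−5.95 ± 0.16), and Ighe was at 1.10 to 1.90 FPKM against 3 counts or fewer in every Metformin+FK506 sample, at least 49.5-fold lower. Of the other switched classes tested, Ighg2c fell (−1.90 ± 0.42), while Ighg2b and Ighg3 rose by 0.79 ± 0.26 and 0.42 ± 0.15 on the log2 scale. Ighg2b and Ighg3 lost that call without Metformin replicate 2 (edgeR adjusted p = 0.0554 and 0.0947) and without Metformin+FK506 replicate 3 (edgeR adjusted p = 0.0658 and 0.119), and with quantile scaling (limma adjusted p = 0.288 and 0.165). Reads can be shared among immunoglobulin genes, so the values of single classes are uncertain.

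Interferon-stimulated genes were mixed. Of 19 tested, 12 rose and 4 fell (median 0.65). Oas1a, a sensor of double-stranded RNA, was at 0.723, 0.793 and 0.979 FPKM with metformin and at 6.55, 5.56 and 5.60 with the combination (2.63 ± 0.10), and Rtp4 rose by 3.92 ± 0.17. Isg15, a ubiquitin-like modifier, went the other way, at 20.5, 20.2 and 18 against 8.41, 7.24 and 5.34 FPKM (−1.62 ± 0.13), as did Ifit1 (−1.66 ± 0.098). The promoters of Isg15 at chr4:156200769-156201068 and Oas1a at chr5:120907476-120907775 (both on the minus strand, windows and build as above) are shown because these genes moved apart while both hold the letters of the interferon response element, GAAA, NN, GAAA (N being any base), in capitals.
Isg15: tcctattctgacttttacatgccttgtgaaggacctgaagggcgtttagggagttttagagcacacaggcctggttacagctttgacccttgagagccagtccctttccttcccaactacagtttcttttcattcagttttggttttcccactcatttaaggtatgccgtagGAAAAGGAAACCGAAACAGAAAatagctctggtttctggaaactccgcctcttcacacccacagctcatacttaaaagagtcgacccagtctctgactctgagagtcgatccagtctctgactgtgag
Oas1a: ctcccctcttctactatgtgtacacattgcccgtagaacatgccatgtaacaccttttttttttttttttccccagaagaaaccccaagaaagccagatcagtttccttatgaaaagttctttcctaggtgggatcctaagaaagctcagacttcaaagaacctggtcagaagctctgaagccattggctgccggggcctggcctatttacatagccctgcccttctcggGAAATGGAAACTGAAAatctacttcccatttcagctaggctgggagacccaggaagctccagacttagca
The letters GAAA, NN, GAAA were found on either strand, each promoter counted once, in 8 of the 14 list genes with a promoter entry (57.1%), against 3.49% of all 27025 promoters. Among the 10283 promoters of tested genes it was 3.30%. The list was drawn up from interferon-stimulated genes, so a higher share could follow from how it was chosen.

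FK506 without metformin gave a like profile. FK506 against Control, which shares no sample with the comparison above, changed 11829 genes (81.8%), of which 6047 were higher (41.8%) and 5782 lower (40.0%). Both comparisons called 10222 genes, 88.8% of those called with metformin and 86.4% of those called without, and 9565 of them moved in the same direction (93.6%). Across genes, which are not independent replicates and share the libraries' composition, the log2 changes had a Pearson's r of 0.90, and the median size of the change was 0.57 with metformin and 0.67 without. The interaction, which tests the difference between the FK506 effect under metformin and the FK506 effect without it, passed for 6956 genes (48.1%), 3338 with a higher value with metformin (23.1%) and 3618 with a lower one (25.0%). Among the genes that moved the same way in both comparisons, 4515 had an interaction, with a smaller change under metformin for 2813 and a larger one for 1702.

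**Figure D4:**
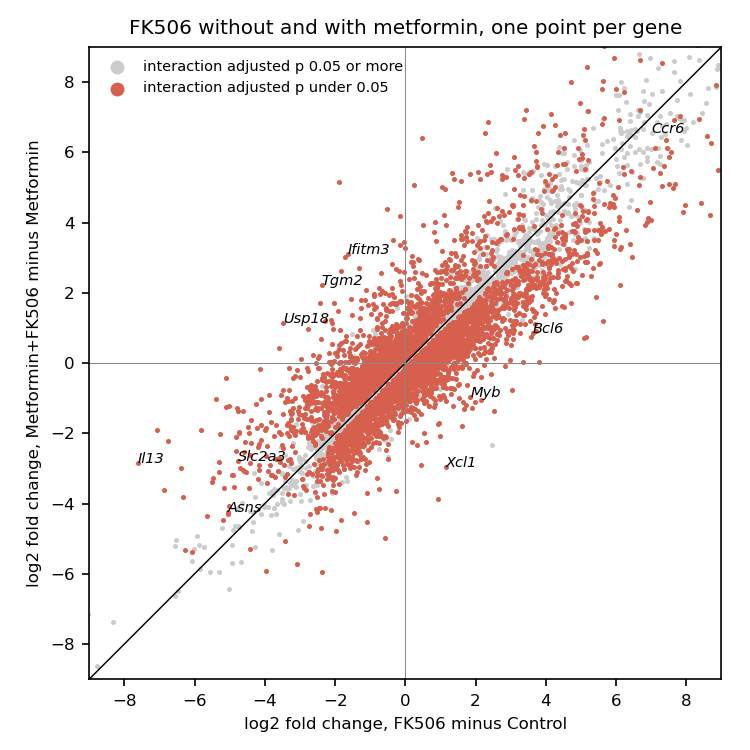
Fitted log2 fold change of FK506 with metformin (vertical) against that without metformin (horizontal), 1 point per gene for 14015 genes (420 at the floor in a group and 21 beyond the axes are left out), with genes that pass the interaction test in red. Most genes lie near the line of equal change, while Il13, Usp18 and Ifitm3 lie above it and Xcl1, Myb and Bcl6 below.

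The lists that fell with FK506 differed in this respect. All 20 glycolysis genes had an interaction in the direction of a higher value with metformin, and the median change was −0.98 with metformin and −2.68 without. For Hk2, the hexokinase of activated T cells, the Control samples averaged 41.8 FPKM and the Metformin samples 10.5, while FK506 brought them to 3.28 and 4.44. The cytokine list had medians of −1.41 and −3.09 with 9 interactions of 14, all toward a higher value with metformin. The ribosome biogenesis list had medians of −0.27 and −0.85 with 16 interactions of that kind and 2 of the other. The mitosis list went the other way, with medians of −2.29 with metformin and −1.83 without and 21 of 24 genes lower by interaction. The ATF4 list had nearly equal medians, −2.35 and −2.39, with 9 interactions one way and 7 the other. The naive T cell list rose less with metformin (medians 0.30 and 1.08, 15 of 18 genes lower by interaction), and so did the B cell markers (2.33 and 3.88, 11 of 12). The 13 genes of the mitochondrial genome all had a lower value by interaction, with medians of 0.15 and 0.69. The interferon list differed in sign, with a median of 0.65 with metformin and −1.81 without and 16 of 19 genes higher by interaction. The balance of directions depended on the scaling: with the T cell identity genes as the scale 20.9% of the interactions were higher with metformin, against 48.0%.

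**Figure D5:**
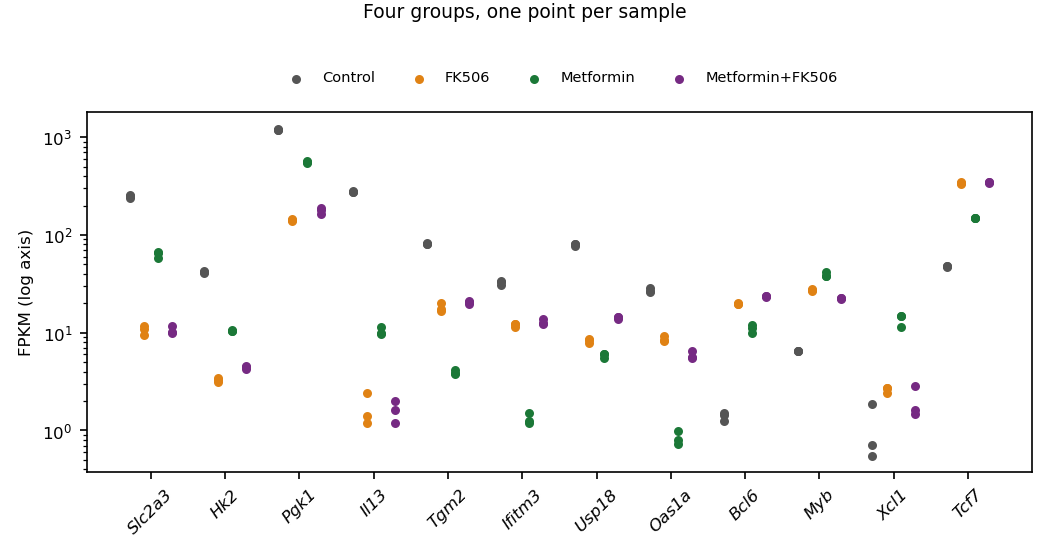
FPKM (log axis) of 12 genes in the 3 samples of each of the 4 groups. For Slc2a3, Hk2, Pgk1 and Il13 the Control and Metformin samples lie apart and both FK506 groups lie close together and low, and for Oas1a, Usp18 and Ifitm3 the Metformin samples are the lowest.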

How the data were processed

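RNA sequencing of the 6 samples compared here, and of the 6 Control and FK506 samples set beside them, was taken as the authors deposited it: unnormalized counts of reads for each gene, beside FPKM and TPM values. The submitters' processing notes name bcl2fastq 2.20.0, Trimmomatic, HISAT2 2.1.0, StringTie 2.1.3b and mm10. The annotation, strand and treatment of shared reads are not given in the sources used here.

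Counts of all 4 groups were fitted with edgeR 4.0.16 in R 4.3.3 (TMM scaling, glmQLFit and glmQLFTest, 8 residual degrees of freedom), which lets the groups share 1 estimate of the spread. Where none of a group's samples held over 3 counts of a gene, its fold was computed against 3 counts per library, a bound that covers counting error only. The members and gene lists were chosen with earlier results of these data known. Besides list members, the text names genes by a rule: the 15 largest rises and falls with a mean FPKM of at least 1 in both groups, the 10 largest in FPKM, and the 5 largest interactions each way, some of which are not reported here. One list symbol was matched by an older name. On simulated counts for this comparison (14456 genes), edgeR called 186 of 200 genes changed by a factor of 2 (93%), with 9 false calls. Only those 200 genes were changed, as many up as down. The simulation therefore cannot give the error rate where most genes move and the scaling matters, as in these data. The alternatives used limma 3.58.1 and DESeq2 1.42.0, and the TPM scale was added after the data were seen. Promoters and gene types came from RefSeq tables of GRCm38.p6, in which 45679 gene identifiers were found.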

Additional observations from a re-analysis of the deposited data

Results flagged for a closer look

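The effect of FK506 differed with and without metformin, by the interaction term in the edgeR fit, for 6956 genes. The largest interactions toward a higher value with metformin, among genes with a mean of at least 1 FPKM in all 4 groups, included those of Il13 (4.76 ± 0.26, SE), Ifitm3 (4.75 ± 0.15), Tgm2 (4.61 ± 0.084) and Usp18 (4.60 ± 0.075) on the log2 scale. Il13, a Th2 cytokine gene, was at 276 ± 3.75 FPKM (SD, n = 3) in Control and 10.4 ± 0.925 in Metformin, and at 1.67 ± 0.662 and 1.60 ± 0.417 once FK506 was added. Ifitm3, an antiviral membrane protein gene, was lower with FK506 than in Control (12 ± 0.483 against 32.5 ± 1.65 FPKM) and higher with the combination than with metformin (12.9 ± 0.71 against 1.32 ± 0.175). Tgm2 and Usp18 showed the same pattern.

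The largest toward a lower value were those of Xcl1 (−4.11 ± 0.45), Gm13546 (−3.89 ± 0.22), Myb (−2.82 ± 0.058), Bcl6 (−2.79 ± 0.079) and Klrd1 (−2.77 ± 0.20). Xcl1, a lymphocyte chemokine gene, was at 1.04 ± 0.709 FPKM in Control and 2.62 ± 0.176 with FK506, and at 13.8 ± 1.92 in Metformin and 1.97 ± 0.738 with the combination. Myb, a factor of progenitor cells, was at 6.51 ± 0.0326 and 27.2 ± 0.601 without metformin, and at 39.3 ± 1.83 and 22.7 ± 0.253 with it.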

How the results depend on the processing

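The count of genes changed by FK506 with metformin was 11511 with all samples. It fell to between 11091 and 11495 when each of the 12 samples was left out in turn. The interaction count, 6956 with all samples, then lay between 6393 and 6985. The matching ranges were 11469 to 12010 for FK506 against Control and 472 to 487 for the 486 list genes called. DESeq2 called 11452 genes, and the 6 samples alone 11159. Without a filter 13740 genes of 27636 were called. Requiring a log2 change of 1 left 4523 genes, 1665 interactions, 5090 genes for FK506 against Control and 274 list genes. Equal replicate numbers did not pair the samples, since the deviations of samples with the same number correlated at 0.046, −0.0057 and 0.037 between Metformin and Metformin+FK506, at 0.022, −0.035 and −0.0091 between Control and FK506, and below 0.1 between every other 2 groups. The fit with a replicate block called 11395 genes, 6701 interactions, 11738 genes for FK506 against Control and 480 list genes.

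Scaling decided the direction of small changes. The median of the T cell identity list was positive with quantile scaling (0.086), library totals (0.046), T cell scaling (0.12) and TPM (0.32), and that of the cytokine feedback list with log2(FPKM + 1) (0.12), log2(FPKM + 0.1) (0.12), quantile scaling (0.041), library totals (0.15), T cell scaling (0.22) and TPM (0.44). On the TPM scale the medians also turned positive for CD8 T and NK cell markers (0.021), activation receptors (0.088), inhibitory receptors (0.12), NR4A, EGR and TOX factors (0.16), cell cycle inhibitors (0.061), ribosome biogenesis (0.19), cholesterol synthesis (0.043), complex I (0.13) and the BCL2 family (0.20). Ppp3cb and Rcan1, which missed the threshold, changed sign with log2(FPKM + 1) (0.026 and 0.078), log2(FPKM + 0.1) (0.027 and 0.091), library totals (0.065 and 0.11), T cell scaling (0.14 and 0.18) and TPM (0.34 and 0.38), where both passed as higher (limma adjusted p = 0.00086 and 0.00132). Of the 149 values of single genes, 141 kept direction and call under every alternative other than the log2 change of 1. Those that did not were Ppp3cb (passing as lower without Metformin+FK506 replicate 2, edgeR adjusted p = 0.00164, and with no filter, 0.045), Rcan1, Il17a, Ighg2b, Ighg3 (also the 6 samples alone, edgeR adjusted p = 0.0569, and no filter, 0.0522), Hdc (also 6 other settings, TPM with the highest p, limma adjusted p = 0.745), Il2 (TPM, limma adjusted p = 0.0872) and Cd3e (no filter, edgeR adjusted p = 0.135). The cause of these moves was not tested. Depth limits genes near the floor, whose folds are bounds.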
